A study of Mus musculus with 14 samples.

Results

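Gene expression in control cultures was compared between 3 lines labelled for a CREB construct that carries S133A and 3 lines labelled for the same constructs without it (intact S133), which took 6 of the 14 libraries of the series. The cells, αTN4-1, derive from lens epithelium of mice that carry a viral T antigen under a lens promoter. Each S133A line was set against the intact line with the same state of the basic leucine zipper (bZIP, the part of CREB that dimerizes and binds DNA), so that there were 3 pairs, namely S133A-CREB with WT-CREB, S133A-KCREB with KCREB and S133A/R314A-CREB with R314A-CREB. In every list of 3 values below, the order is the unmutated bZIP, K and R314A. All 6 lines grew in serum with neomycin, which selects for the construct, and received no TGFβ. The Vector line, which carries no CREB construct, stood outside the comparison and its control library is given beside it. Each line gave 1 control library, and the labels do not say whether a line is a clone or a pool, how the control cultures were kept while others were treated, or from which species the CREB sequence came. A difference between groups therefore has 3 lines on each side, and within a pair the S133 state and the line cannot be told apart. Of the 40853 genes in the deposited tables, 10529 averaged 5 TPM or more over the 6 libraries and were tested (TPM, a gene's length-scaled share of the transcripts in a library).

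CREB is a transcription factor that sits on cAMP response elements in promoters. When cAMP rises, protein kinase A phosphorylates its serine S133, and the phosphorylated form recruits the histone acetyltransferases CBP and p300, so that S133A, which puts alanine there, takes that step away. The CRTC coactivators bind the bZIP instead, a contact that R314A is known to weaken, and KCREB no longer binds DNA and draws its partners into inactive dimers. Creb1, Crem and Atf1 form one family whose proteins pair with each other, and all were measured here.

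The transcripts of the family did not separate the groups. Creb1 (chr1:64571963-64643707 on GRCm39) had 11.6, 25.8 and 9.04 TPM in the intact lines and 6.59, 34.04 and 7.92 TPM in the S133A lines, against 20.8 TPM in Vector. Both lines labelled with K were above Vector and the other 4 lines were below it, so that Creb1 ran with the bZIP label and against the overexpression that 4 of the labels name. Whether reads of the constructs are counted under Creb1 was not tested. The difference between S133A and intact lines was -0.17 ± 0.28 on the log2(TPM + 1) scale, given here and below as the mean of the 3 pairs ± SE from limma (n = 3 pairs). Crem, whose products include a cAMP-induced repressor, had 7.74, 11.5 and 7.10 TPM against 6.24, 12.5 and 5.54 TPM, a difference of -0.16 ± 0.26. Atf1 had 96.3, 63.7 and 79.6 TPM against 89.3, 67.6 and 81.7 TPM. Among the 12 tested genes of the CREB subfamily and its coactivators, 2 were higher and 2 lower in all 3 pairs, against 14.8% and 11.5% of all genes tested. Crtc2, a coactivator that carries the CREB signal in metabolism, was lower in each pair (81.8, 44.05 and 58.3 TPM against 60.2, 29.7 and 44.7 TPM, a difference of -0.45 ± 0.15). Creb3, a membrane-bound relative, was higher in each pair (87.9, 190.0 and 200.2 TPM against 199.8, 207 and 301 TPM, 0.63 ± 0.23). Crtc3 was the only member in which the groups did not overlap (0.28 ± 0.19), and Crebbp, which encodes CBP, was higher in 2 of the 3 pairs (0.40 ± 0.20). No member passed the test (adjusted p of 0.911 for each of these 4 genes).

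The libraries also differed in depth and composition. The coverage that 1 FPKM stands for, a measure of depth, ran from 5.05 to 8.96, and 12545 to 13081 genes reached 1 TPM. Mitochondrially encoded genes held 10.8%, 8.61% and 8.20% of TPM in the intact lines and 6.28%, 8.39% and 5.59% in the S133A lines. This share was thus lower in the S133A line of each pair, though by little in the K pair. Across genes, WT-CREB and KCREB correlated at 0.876, the lowest of all pairs of libraries. The remaining 4 libraries correlated at 0.920 to 0.956 with one another, at 0.908 to 0.920 with WT-CREB and at 0.896 to 0.940 with KCREB. Of the sum of squares between the 6 libraries over all genes tested, the bZIP state took 44.2% (22.1% for each of its 2 degrees of freedom), the S133 state 18.8% with 1, and the remainder 37.0% (18.5% for each of 2). Thus the S133 term held about as much per degree of freedom as what was left after both terms. Most defining markers of lens epithelium were present (8 of 10 at the level tested), although Foxe3, which marks the undifferentiated lens epithelium, was below 0.1 TPM in each library. Cdh1, which encodes E-cadherin, was the other one below the level tested. It was at 0.249, 0.0413 and 0.0887 TPM in the intact lines and 0, 0 and 0.112 TPM in the S133A lines. Summed over the 10 markers, the level was 734 to 2508 TPM in the intact lines and 971 to 1312 TPM in the S133A lines. Of 12 endothelial markers none reached the level tested, with sums of 3.16 to 3.58 TPM in the intact and 4.11 to 5.47 TPM in the S133A lines, and Kdr, Tie1, Cldn5 and Erg were below 0.1 TPM in each library. Of 16 neuronal and retinal markers none reached it (0.816 to 2.82 TPM and 2.47 to 8.04 TPM), and 9, Rbfox3, Snap25 and Elavl4 among them, were below 0.1 TPM in each library. Some markers of other tissues were present. Of 14 muscle markers, 3 were tested (Tnnt2, Des and Tnni2), and the sum was 19.18 to 124 TPM in the intact lines and 77.6 to 138 TPM in the S133A lines. Tnnt2, the cardiac troponin T, had 41.4, 7.04 and 80.7 TPM against 89.05, 89.6 and 51.5 TPM. Of 15 markers of surface ectoderm and cornea, 2 were tested (Aldh3a1 and Slurp1), with sums of 410 to 2285 TPM and 839 to 1236 TPM, nearly all of it Aldh3a1 in most libraries. Of 11 markers of pigment cells Mitf alone was tested (sums of 5.23 to 10.1 TPM and 7.75 to 13.4 TPM), and of 7 of lens fibers Hsf4 alone (15.3 to 23.8 TPM and 14.6 to 23.1 TPM). The part of these differences in the results was not tested.

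In control cells, Cox7b2, Nlrp4e, Pnma5 and Nlrp4f had the largest mean differences without overlap between the groups once predicted genes were passed over. Nlrp4e and Nlrp4f were near 0 in the intact lines and present in all 3 S133A lines, and Cox7b2 and Pnma5 were low in the former and higher in each of the latter. The predicted gene Gm46220 had a larger difference than any of them (4.33), with 6.19, 0.569 and 1.59 TPM in the intact and 62.2, 73.8 and 48.7 TPM in the S133A lines. On the other side, Rgs16, which ends G protein signals, was lower in the S133A lines. It is in the list of cAMP targets used here, which was chosen with earlier results of these data known. The axonemal gene Rsph9 and the noncoding RNA Neat1 were lower as well. Of 23 tested genes of cholesterol synthesis, 14 were lower in all 3 pairs, against 11.5% of all genes tested. None of the 10529 genes passed limma at an adjusted p of 0.05 (0% called). At an unadjusted p of 0.05, 503 genes passed (4.78%), of which 346 were higher and 157 lower in S133A lines. The smallest adjusted p was 0.278, for Cox7b2. The model had 2 residual degrees of freedom. An exact two-sided permutation test of 3 libraries against 3, which ignores the pairs, cannot give a p below 0.1. One that keeps the pairs has fewer arrangements, so its limit is higher. What follows is thus a description of 6 libraries. Without the WT-CREB pair, the mean over the other 2 pairs was 3.80 for Cox7b2, 4.20 for Nlrp4e, 3.22 for Nlrp4f, 3.56 for Pnma5 and -1.58 for Rgs16 on the log2(TPM + 1) scale. Without the KCREB pair, it was 4.21 for Cox7b2, 3.86 for Nlrp4e, 3.27 for Nlrp4f, 3.87 for Pnma5 and -1.47 for Rgs16.

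Counting by size, 16 genes were higher by at least 2-fold in all 3 pairs (0.152% of those tested) and 2 were lower (0.019%). The 3 libraries of one group did not overlap those of the other in 591 genes that were higher in S133A lines (5.61%) and in 408 that were lower (3.88%). Single pairs held far more large differences. In the pair with the unmutated bZIP 561 genes were at least 2-fold higher (5.33%) and 139 lower (1.32%), in the K pair 463 (4.4%) and 397 (3.77%), and in the R314A pair 183 (1.74%) and 189 (1.8%). Across genes, the differences in one pair were nearly unrelated to those in another, with Pearson correlations of -0.05 for the unmutated bZIP with K, -0.02 for the unmutated bZIP with R314A and 0.11 for K with R314A.

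**Figure D1:**
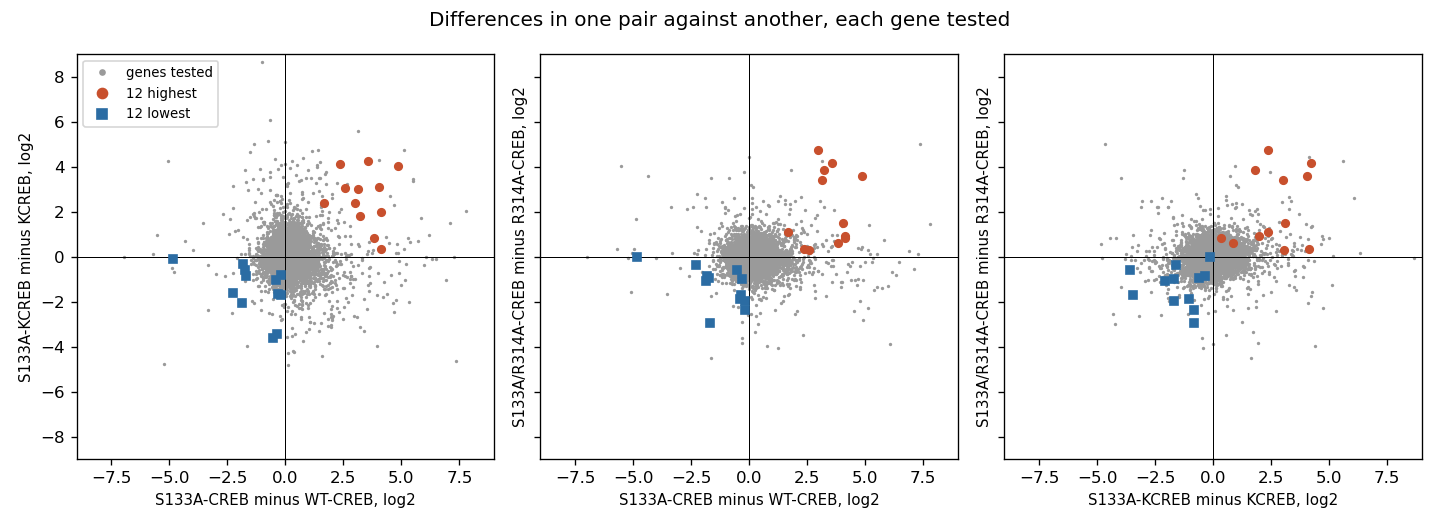
Difference in log2(TPM + 1) between the S133A line and its intact partner for each of the 10529 genes tested (grey), one pair against another in each panel. Orange circles are the 12 highest and blue squares the 12 lowest mean differences named in the text. The cloud shows no common slope (r of -0.05, -0.02 and 0.11 from left to right), and the choice of genes with one direction in all pairs puts the orange circles at upper right and the blue squares at lower left.

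The genes furthest apart between the groups are described next. They are the 12 highest and 12 lowest mean differences among genes with one direction in all pairs and no overlap between groups, so their values and intervals describe that choice. Cox7b2 (chr5:71600166-71705548) encodes the testis form of a small subunit of cytochrome c oxidase. It had 1.17, 2.54 and 2.65 TPM in the intact lines and 61.1, 56.6 and 42.7 TPM in the S133A lines (2.12 ± 0.827 and 53.5 ± 9.61 TPM, SD, n = 3 each). Every S133A library was far above every intact one. Vector, at 31.9 TPM, lay between the groups and nearer to the S133A lines. The difference was 4.15 ± 0.30 with a 95% interval of 3.38 to 4.92. The widely expressed paralog Cox7b had 201, 205 and 175 TPM in the intact and 174, 182 and 207 TPM in the S133A lines, so the difference in Cox7b2 had no counterpart there. In a bulk library, more cells that express a gene and more RNA in each cell cannot be told apart.

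Nlrp4e (chr7:23000617-23061702) belongs to the oocyte-expressed branch of the NLRP family, whose members carry a nucleotide-binding domain and leucine-rich repeats. It was listed at 0, 0 and 0.0407 TPM in the intact lines and at 10.7, 17.8 and 17.8 TPM in the S133A lines, with 2.39 TPM in Vector. Its difference was 3.98 ± 0.45 (adjusted p of 0.694), which is no fold, since 2 libraries are listed at 0. Nlrp4f, a second member (chr13:65324925-65353530), had 0.208, 0.140 and 0.199 TPM against 9.55, 8.27 and 11.8 TPM, and here Vector (10.4 TPM) was like the S133A lines. The S133A values of both genes lay within narrow ranges and did not approach the intact ones. Near-identical copies of Nlrp4 genes exist, so how the counting shared reads among them can move these levels, and Nlrp4c was at 0, 0 and 0 TPM in the intact lines and 1.04, 0.151 and 0.544 TPM in the S133A lines. Pnma5 (chrX:72077587-72083315), one of a family derived from retroelements, had 2.64, 0.481 and 0.134 TPM against 27.7, 6.60 and 29.6 TPM. Its Vector library, at 1.37 TPM, lay in the intact range, unlike that of Nlrp4f. Of 46 germline genes looked at, 14 reached 1 TPM in any of the 6 libraries and 5 were tested, of which 2 would have been tested on the intact lines alone. The others passed through the group in which they were high, so no share of them is given as support. Rhox5, an X-linked homeobox gene of the germ line, was tested and did not follow the S133 label, with 678, 3.98 and 16.6 TPM in the intact lines and 425, 336 and 106 TPM in the S133A lines. Pramel12, the other germline gene tested, varied little, with 21.9, 19.5 and 19.6 TPM against 21.9, 18.4 and 21 TPM.

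The promoter windows of Cox7b2, Nlrp4e, Nlrp4f and Rgs16 are shown because these genes had the clearest separation, and the last stands in the list of cAMP and CREB targets. They run from 250 bases before to 50 bases after the start of transcription, from RefSeq on GRCm38.p6, at chr5:71548156-71548455 (minus strand), chr7:23300942-23301241 (plus), chr13:65205667-65205966 (minus) and chr1:153740103-153740402 (plus). Capitals mark the core of the cAMP response element, TGACG or its reverse complement CGTCA.
Cox7b2: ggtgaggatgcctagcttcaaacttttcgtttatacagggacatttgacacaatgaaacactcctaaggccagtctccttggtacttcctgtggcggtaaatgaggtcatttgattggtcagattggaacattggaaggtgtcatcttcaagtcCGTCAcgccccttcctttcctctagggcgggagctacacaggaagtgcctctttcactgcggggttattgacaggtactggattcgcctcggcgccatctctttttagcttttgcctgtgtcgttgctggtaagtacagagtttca
Nlrp4e: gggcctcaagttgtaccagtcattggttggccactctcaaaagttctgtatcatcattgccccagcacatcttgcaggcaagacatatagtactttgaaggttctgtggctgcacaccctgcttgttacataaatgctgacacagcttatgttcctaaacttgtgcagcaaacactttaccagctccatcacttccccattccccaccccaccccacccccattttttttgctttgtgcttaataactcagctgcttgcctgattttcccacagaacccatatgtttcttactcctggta
Nlrp4f: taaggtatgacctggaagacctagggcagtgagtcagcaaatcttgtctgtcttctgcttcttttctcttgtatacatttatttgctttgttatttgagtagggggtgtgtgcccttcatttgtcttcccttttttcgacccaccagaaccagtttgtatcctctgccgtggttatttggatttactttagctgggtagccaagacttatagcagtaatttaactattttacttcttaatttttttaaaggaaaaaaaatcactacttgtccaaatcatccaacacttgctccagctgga
Rgs16: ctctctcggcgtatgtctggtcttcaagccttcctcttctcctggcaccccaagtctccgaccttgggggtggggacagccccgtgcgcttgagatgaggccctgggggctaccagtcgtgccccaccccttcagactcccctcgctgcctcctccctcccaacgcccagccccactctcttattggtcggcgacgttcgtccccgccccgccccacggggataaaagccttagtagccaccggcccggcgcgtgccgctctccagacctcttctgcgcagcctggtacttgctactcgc
The window of Cox7b2 held 1 such core and the other 3 windows held none. The full element TGACGTCA, which contains the core on each strand, was in none of the 11 windows matched to the 12 highest genes and in none of the 10 matched to the 12 lowest. It was in 3.12% of the windows of genes tested and in 1.79% of all 32851 windows of this length. The core on either strand was in 18.2% of windows of the highest genes and 20% of the lowest, against 32.2% for genes tested and 20.8% for all windows. In the known cAMP and CREB targets, 5 of 41 windows (12.2%) held the full element and 61.0% the core. These are matches of letters in a fixed window and say nothing about binding.

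Of the other genes with high values in S133A lines, several encode surface or secreted proteins. Cd48, a SLAM-family surface protein of leukocytes, had 1.39, 0 and 0.671 TPM in the intact lines and 21.2, 2.53 and 22.8 TPM in the S133A lines, a difference of 2.96 ± 0.55. The S133A-KCREB library was far below the other S133A libraries and close to the highest intact one. Leukocyte markers summed to 1.63 to 2.73 TPM in the intact lines and 1.61 to 6.59 TPM in the S133A lines. Of these 8 markers Cd52, Laptm5, Tyrobp and Adgre1 were below 0.1 TPM in each library, and Ptprc, which encodes the pan-leukocyte protein CD45, was at 0.212, 0.0482 and 0.211 TPM in the S133A lines. Cd53, a leukocyte tetraspanin, was at 0.323, 0 and 0 TPM against 2.91, 0.0508 and 0.468 TPM, and Csf1r, the receptor of a macrophage growth factor, at 1.37, 1.12 and 1.26 TPM against 2.08, 1.46 and 1.30 TPM. Both were above the partner in each S133A line. Fcer1g, also among the 8, was at 0.841, 0.405 and 0.376 TPM against 1.38, 0 and 0.576 TPM, lower in the K pair only. Outside the 8, Cd68 was at 6.35, 2.36 and 3.62 TPM against 5.02, 2.05 and 4.02 TPM, higher in the R314A pair only. Lyz2 was at 17.4, 62.4 and 34.7 TPM against 68.1, 27.3 and 63.6 TPM, lower in the K pair only. Cd74 was at 13.3, 2.36 and 1.78 TPM against 38.8, 5.78 and 2.86 TPM, higher in each pair. Slamf8 was also higher in each pair, near 0 in most lines, and Ms4a4d was lower in each pair. The leukocyte genes thus shared no direction, and their part in the value of Cd48 was not tested. Cxcl12, the chemokine that signals through CXCR4, had 17.98, 15.8 and 43.3 TPM against 112, 138 and 53.1 TPM (1.97 ± 0.54). Its R314A pair hardly differed, and the separation came from the other pairs. Timp3, a matrix-bound inhibitor of metalloproteinases, had 3.82, 46.5 and 39.7 TPM against 83.5, 59.8 and 71.5 TPM (1.77 ± 0.75), and Adgra2, an adhesion receptor, had 0.280, 6.23 and 10.2 TPM against 16.97, 11.9 and 16.1 TPM (1.75 ± 0.68). In both, WT-CREB alone was low among the intact lines, so the mean rests mainly on 1 pair, and without it the mean was 0.59 for Timp3 and 0.73 for Adgra2.

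The cytochrome P450 genes Cyp2b13 and Cyp3a41a, which belong to clusters of liver enzymes, were also among the highest. Cyp2b13 had 1.11, 0.343 and 6.14 TPM against 33.2, 10.4 and 19.07 TPM (2.87 ± 0.53). Cyp3a41a had 0.617, 0.0928 and 0.344 TPM against 27.00, 3.27 and 1.51 TPM (2.33 ± 0.80), with S133A-CREB far above the rest. Both have close relatives in their clusters with which reads may be shared, and the near copy Cyp3a41b was at 0.963, 0 and 0.104 TPM in the S133A lines. Tcp11x2, an X-linked relative of a sperm gene, had 8.17, 2.65 and 22.9 TPM against 45.5, 62.5 and 29.1 TPM (2.27 ± 0.70). Kank4os, an antisense transcript, had 10.6, 3.68 and 7.29 TPM against 35.6, 23.2 and 16.7 TPM (1.71 ± 0.30), and Kank4 on the other strand was listed at 0 in all 6 libraries. Just outside the 12, at a difference of 1.69, was the protocadherin Pcdhb16. Besides Cox7b2, Nlrp4e, Nlrp4f, Pnma5, Cd48, Cyp2b13 and Kank4os, the 16 genes at least 2-fold higher in all pairs were Pcdhb16, Masp1, Nnmt, Septin3 and 5 predicted genes. Masp1, a protease of the lectin branch of complement, had 42.4, 19.6 and 31.4 TPM against 157, 80.7 and 72.3 TPM. Nnmt, which methylates nicotinamide, had 17.1, 0.0439 and 1.77 TPM against 45.1, 15.5 and 6.53 TPM, and Septin3, a neuronal septin, 0, 1.08 and 5.10 TPM against 3.73, 18.8 and 36.7 TPM. In Nnmt and Septin3 the groups overlapped although each pair differed in the same direction.

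**Figure D2:**
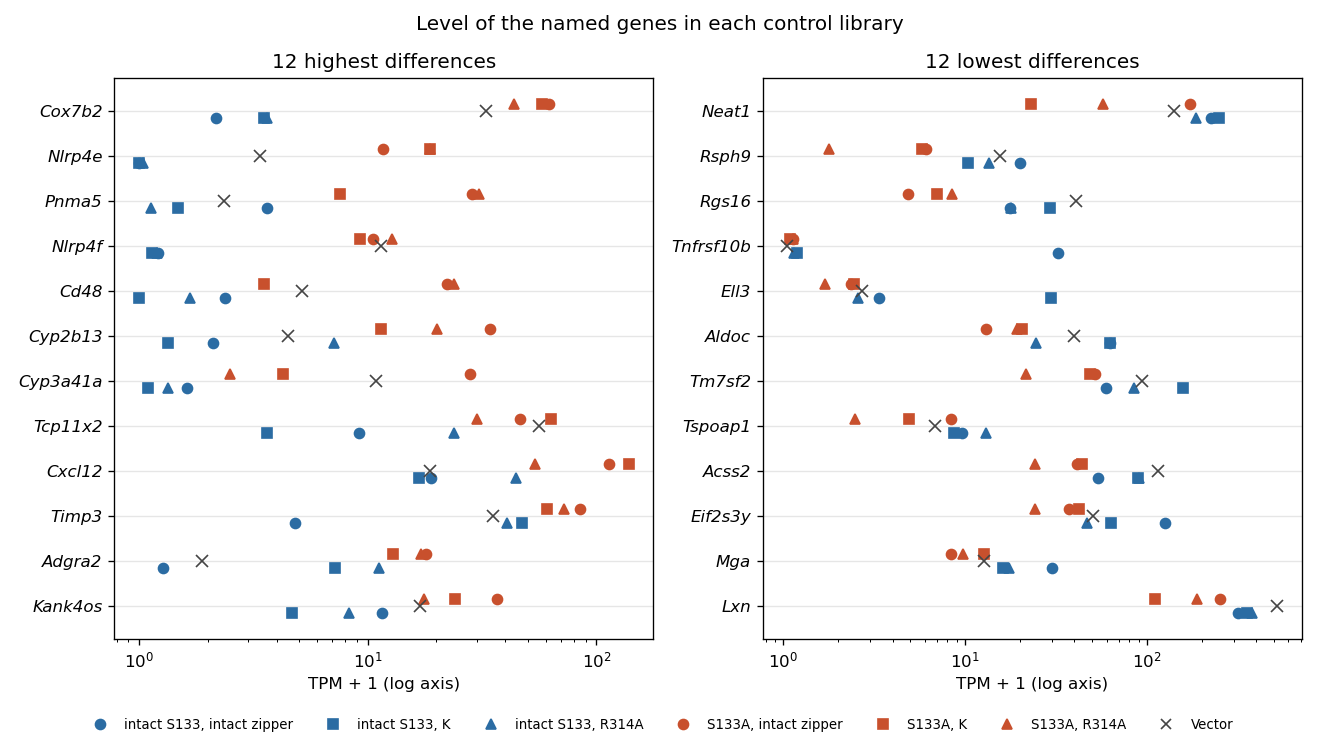
TPM + 1 on a log axis for each control library, for the 12 highest (left) and 12 lowest (right) mean differences. Blue points are the intact lines, orange points the S133A lines, the marker shape gives the bZIP state and the cross is Vector. Cox7b2, Nlrp4e and Nlrp4f show tight groups far apart, while Tnfrsf10b and Ell3 are set by a single intact line.

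Among genes with lower values in S133A lines, Rgs16 (chr1:153616099-153621214), which speeds the return of G proteins to rest, was the only named gene at least 2-fold lower in all 3 pairs. It had 16.7, 28.5 and 16.98 TPM in the intact lines and 3.87, 5.99 and 7.48 TPM in the S133A lines (-1.67 ± 0.28, interval -2.38 to -0.96). The groups did not overlap, and Vector was higher than either group at 39.8 TPM. The other gene of that count was a predicted gene. Neat1, the noncoding RNA that builds paraspeckles, had 223, 247 and 185 TPM against 172, 21.97 and 56.3 TPM (-1.83 ± 0.56), with the K and R314A pairs far apart and the remaining pair close. Rsph9, a radial spoke protein of motile cilia, had 18.98, 9.36 and 12.6 TPM against 5.12, 4.78 and 0.780 TPM (-1.82 ± 0.46). Ccdc39, another axonemal gene, was also lower without overlap (13.7, 6.39 and 9.20 TPM against 5.58, 5.57 and 4.88 TPM, -0.71 ± 0.32), among 6 tested genes of motile cilia of which 3 were lower in all pairs, against 11.5% of all genes tested. That list was chosen with earlier results known.

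The remaining genes of the 12 lowest have varied roles. Aldoc, a brain aldolase, had 61.98, 61.7 and 23.7 TPM against 12.01, 19.6 and 18.2 TPM (-1.41 ± 0.38). Acss2, which makes acetyl-CoA from acetate and is a known target of the sterol-sensing factor SREBP2, had 53.02, 87.96 and 89.7 TPM against 40.1, 42.9 and 23.3 TPM (-1.10 ± 0.30). Lxn, a carboxypeptidase inhibitor, had 315, 354 and 379 TPM against 251, 110.0 and 188 TPM (-1.004 ± 0.28). In both Acss2 and Lxn, Vector was above all 6 lines, at 115 and 522 TPM. Mga, a partner of MAX that represses germline genes in stem cells, had 28.9, 15.1 and 16.4 TPM against 7.38, 11.7 and 8.71 TPM (-1.01 ± 0.33). Eif2s3y, a translation factor on the Y chromosome, had 124, 62.7 and 45.8 TPM against 36.4, 41.2 and 23.2 TPM (-1.10 ± 0.25). The Y-linked genes Ddx3y, Kdm5d and Uty were likewise highest in WT-CREB, at 78.9, 24.7 and 29.6 TPM, against 7.90 to 47.8 TPM in the other 5 lines. Tspoap1, which binds calcium channels at synapses, had 8.66, 7.67 and 12.1 TPM against 7.41, 3.89 and 1.49 TPM (-1.14 ± 0.50). For Tnfrsf10b, a TRAIL death receptor, and Ell3, an elongation factor, the mean came from 1 library. Tnfrsf10b was at 31.3, 0.185 and 0.147 TPM in the intact lines and 0.139, 0.0885 and 0.130 TPM in the S133A lines, so that 2 of its 3 pairs are differences between values near 0. Ell3 was at 2.37, 28.8 and 1.57 TPM against 1.35, 1.46 and 0.697 TPM, and only KCREB was high. Without the pair that holds its highest library, the mean was -0.07 for Tnfrsf10b and -0.56 for Ell3.

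Vector did not side with one group throughout. For the 12 highest genes, its level fell in the range of the intact lines for 5, in that of the S133A lines for 4 and between the ranges for 3. For the 12 lowest genes it fell in the intact range for 5, above both ranges for 3, in the S133A range for 2, between them for 1 and below both for 1. It was thus in the intact range or beyond it, away from the S133A lines, for 8 of the 12 lowest genes.

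Known targets of cAMP and CREB went in both directions. Of 28 tested, 6 were higher and 4 lower in all 3 pairs, against 14.8% and 11.5% of all genes tested, which is near that background, and the median difference was 0.13 against 0.03 for all genes tested. Without overlap, Inhba, which encodes the activin A subunit, had 6.16, 10.8 and 8.79 TPM against 11.96, 28.2 and 14.2 TPM (0.93 ± 0.23). Nr4a2, an orphan nuclear receptor induced by cAMP, had 11.8, 9.70 and 8.60 TPM against 43.4, 17.1 and 11.8 TPM (0.99 ± 0.31), with S133A-CREB highest by far. Cited2, which competes for CBP and p300, had 138, 128 and 69.3 TPM against 294, 149.9 and 98.3 TPM (0.61 ± 0.21). Rgs16 is in this list as well and was lower in each pair, so the members did not share a direction. The upstream pathway had small positive medians. Of 26 tested genes of the cAMP pathway and kinases of CREB, 5 were higher and 1 lower in all pairs (against 14.8% and 11.5% of all genes tested), with medians of 0.15, 0.13 and 0.17 in the 3 pairs. Adcy6, an adenylyl cyclase, had 57.8, 43.3 and 53.2 TPM against 88.2, 58.6 and 62.6 TPM (0.42 ± 0.16) with no overlap, and Akap13, which anchors protein kinase A, had 20.1, 33.5 and 25.1 TPM against 30.9, 37.2 and 31.5 TPM (0.35 ± 0.17). Prkacb, a catalytic subunit of that kinase, was lower in 2 of the 3 pairs (-0.32 ± 0.18).

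Immediate early genes, which respond quickly to growth factors and cAMP, had 4 of 24 members higher and 1 lower in all 3 pairs, against 14.8% and 11.5% of all genes tested. Klf4 had 41.02, 48.3 and 31.5 TPM in the intact lines and 49.9, 139 and 73.7 TPM in the S133A lines (0.99 ± 0.27). Dusp4, a phosphatase that turns off ERK, had 81.4, 82.4 and 79.9 TPM against 90.8, 147 and 149 TPM (0.63 ± 0.20). Junb had 160.5, 132.8 and 180.2 TPM against 205, 208 and 217 TPM (0.42 ± 0.16). In these 3 genes the groups did not overlap, and for Klf4 and Dusp4 the unmutated bZIP pair differed least (0.28, 1.51 and 1.20 for Klf4 and 0.16, 0.83 and 0.89 for Dusp4).

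Cholesterol synthesis had the largest number of members on one side in all pairs among the lists. Of its 23 tested genes, 14 were lower in all 3 pairs, none was higher in all 3, and in 10 the groups did not overlap. Over all genes tested, 11.5% were lower in all pairs and 3.88% were lower without overlap. The median difference was -0.36, with -0.19, -0.47 and -0.39 in the 3 pairs, against 0.09, -0.01 and -0.02 over all genes. None passed the test. At an unadjusted limma p of 0.05 there were 10, all lower. Over all 10529 genes tested there were 503 in either direction (4.78%), of which 157 were lower. Nsdhl, which removes the 4-methyl groups of sterol precursors, had 423, 497 and 447 TPM against 287, 359 and 229 TPM (-0.66 ± 0.17). Mvd, a decarboxylase of the mevalonate steps, had 207, 256 and 214 TPM against 158, 144 and 150.0 TPM (-0.58 ± 0.16). Fdps, which makes farnesyl diphosphate, had 1302, 1514 and 1392 TPM against 1058, 681 and 849 TPM (-0.72 ± 0.21). In all 3 genes every S133A library was below every intact one. Tm7sf2, the sterol reductase that is also among the 12 lowest genes, had 58.5, 157 and 83.6 TPM against 50.98, 47.6 and 20.6 TPM (-1.29 ± 0.37). Srebf2, which encodes the factor that switches the pathway on and was chosen after its values were seen, had 395, 272 and 387 TPM against 422, 289 and 372 TPM, with no common direction over the pairs. In the TGFβ libraries of the same lines, which were kept without serum, the median difference of the list was -0.12. The part of serum or of TGFβ in this value was not tested. Without the WT-CREB pair, the median in control cells was -0.45, and 17 of the 23 genes were lower in both other pairs, against 28.5% of all genes tested. Without the KCREB pair, it was -0.31, with 16 of 23 against 21.3%.

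**Figure D3:**
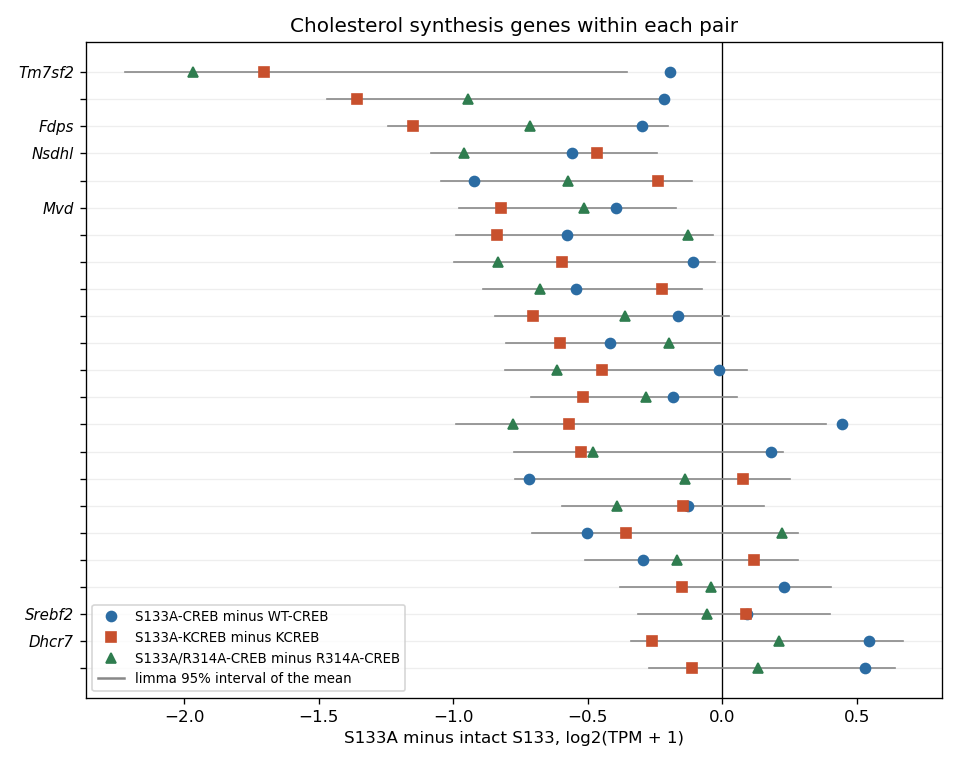
Difference in log2(TPM + 1) within each pair for the 23 tested genes of cholesterol synthesis, ordered by the mean, with the limma 95% interval of the mean as a grey line and names for the genes described in the text. The 14 genes with all 3 points left of 0 include Tm7sf2, Fdps, Nsdhl and Mvd, and Dhcr7 and Srebf2 lie around or right of 0.

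Mitochondrially encoded genes were lower too. They are part of the mitochondrial share of TPM given above, so the list and that share are not separate results. Of the 13 tested, 10 were lower in all 3 pairs and 5 without overlap, against 11.5% and 3.88% of all genes tested, and the median difference was -0.45 (-0.78, -0.10 and -0.53 in the pairs). COX2, a catalytic subunit of cytochrome c oxidase, had 217, 138 and 158 TPM against 114, 108 and 89.3 TPM (-0.70 ± 0.18). ND2, a subunit of complex I, had 11520, 8409 and 6318 TPM against 4418, 7100 and 3665 TPM (-0.80 ± 0.25), where S133A-KCREB was above R314A-CREB. ATP8, a subunit of ATP synthase whose gene overlaps ATP6, had 309, 234 and 242 TPM against 234, 202 and 132 TPM (-0.50 ± 0.18). ND6 lies on the strand opposite to most of these genes, and without a stated strand in the counting its reads and those of its antisense partner cannot be told apart (-0.74 ± 0.20). Without the WT-CREB pair the median was -0.31, and 10 of the 13 genes were lower in both other pairs, against 28.5% of all genes tested. Without the KCREB pair it was -0.64, with 13 of 13 against 21.3%. Nuclear genes of the respiratory chain stayed near the middle, with 3 of 35 higher and 5 lower in all pairs (against 14.8% and 11.5% of all genes tested) and a median of -0.05. Ndufs3 of complex I was among the lower ones (143, 157 and 138 TPM against 118, 105 and 114 TPM, -0.37 ± 0.15).

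Other programs differed strongly in single pairs and in opposite directions. Interferon-stimulated genes, which respond to viral nucleic acid and cytokines, had a median TPM over 34 genes of 34.6, 39 and 60 in the intact lines and 105, 23.1 and 30.1 in the S133A lines. The median differences within pairs were 1.47, -0.72 and -0.69, so the list was higher in the unmutated bZIP pair and lower in the other pairs. No gene of the list was lower in all 3 pairs and 2 were higher, against 11.5% and 14.8% of all genes tested. The 2 higher genes were Bst2 and Oas1g, so they do not show the lower medians of the K and R314A pairs. Bst2, which tethers virus particles to the cell, had 308, 361 and 476 TPM against 1091, 365 and 608 TPM. Oas1g, a sensor of double-stranded RNA, had 0.0812, 0.102 and 2.78 TPM against 30.2, 0.241 and 4.14 TPM, near 0 in both K lines. Genes of MHC class I and antigen processing had the same signs by pair (medians of 1.00, -0.54 and -0.37 over 15 genes). Nlrc5, their transactivator, was higher in each pair (17.5, 6.59 and 12.3 TPM against 23.5, 9.38 and 22.8 TPM, 0.57 ± 0.21), as was the proteasome subunit Psmb10 (0.64 ± 0.23). Of the 15 genes only these 2 were higher and none lower in all pairs, against 14.8% and 11.5% of all genes tested. Targets of p53 had medians of -0.21, 1.11 and 0.15 over 22 genes, so that the K pair alone was far from 0. Phlda3, an inhibitor of AKT, had 121, 129 and 243 TPM against 206, 379.7 and 274 TPM (0.83 ± 0.28). Sesn2, a stress sensor of amino acid supply, had 39.8, 25.9 and 39.8 TPM against 55.2, 47.1 and 52.7 TPM (0.57 ± 0.17), with no overlap. Aen and Gadd45a were higher in the K and R314A pairs and not in the unmutated one (-0.12, 1.995 and 0.92 for Aen and -0.25, 1.12 and 1.25 for Gadd45a).

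Single genes went further in opposite directions, and 221 genes were past 2-fold one way in one pair and past 2-fold the other way in another. The 4 with the widest range were Efemp1, Olfr857, Hs6st2 and Gatm. Efemp1, an extracellular fibulin, had 42.2, 1.48 and 166 TPM against 0.295, 199 and 185 TPM. It was thus nearly absent from KCREB and S133A-CREB and abundant in most other lines. Olfr857, an olfactory receptor, was at 0, 0.108 and 16.8 TPM against 65.4, 0.109 and 0.202 TPM. Hs6st2, which sulfates heparan chains, was at 46.95, 9.13 and 1.10 TPM against 0.0350, 18.6 and 32.99 TPM. Gatm, the first enzyme of creatine synthesis, was at 37.1, 0.871 and 27.7 TPM against 0.128, 34.4 and 8.56 TPM. Each was high in some lines and near 0 in others in a pattern that neither the S133 label nor the bZIP label follows.

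**Figure D4:**
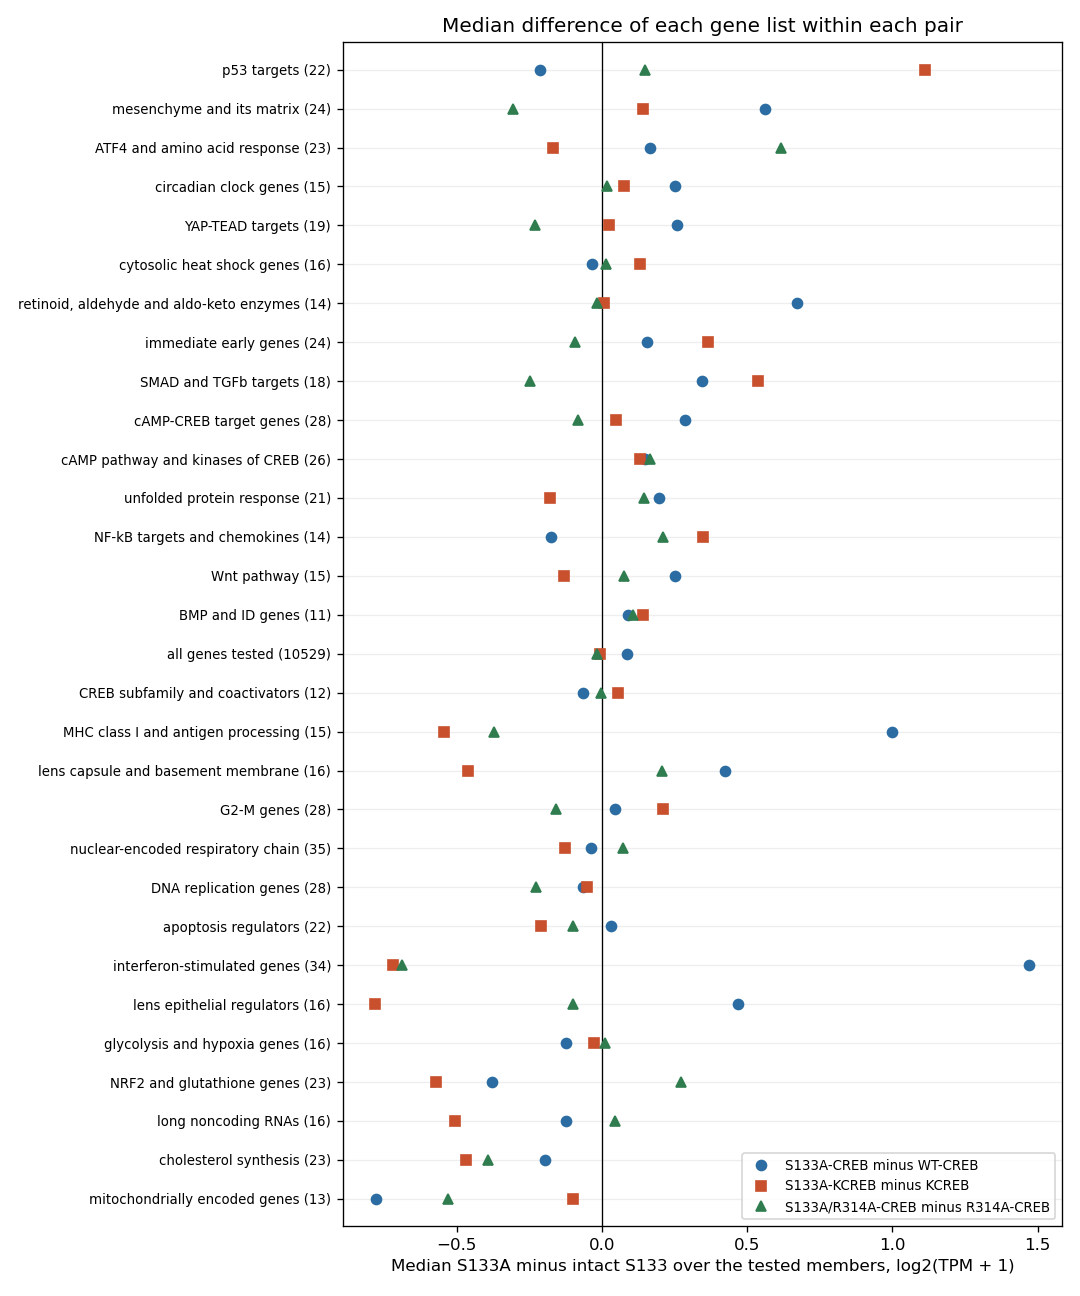
Median difference in log2(TPM + 1) within each pair over the tested members of each gene list with at least 10 tested genes, with the number of genes in brackets, ordered by the median of the mean differences. Cholesterol synthesis and the mitochondrially encoded genes lie left of 0 in all 3 pairs, whereas the interferon list runs from -0.72 to 1.47.

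Genes of lens identity differed most in the K pair. Over 16 tested regulators of lens epithelium the pair medians were 0.47, -0.78 and -0.10. Pax6, the master regulator of eye development, had 63.9, 328 and 128 TPM against 75.8, 109.6 and 77.8 TPM (-0.68 ± 0.35), and Maf, which drives crystallin genes, had 27.6, 79.9 and 29.5 TPM against 22.96, 28.6 and 30.3 TPM (-0.56 ± 0.32). In both genes KCREB was the highest library. Fgfr2, a receptor for the growth factors that drive lens fiber formation, was the member without overlap (4.003, 6.21 and 6.51 TPM against 10.9, 9.14 and 7.25 TPM, 0.63 ± 0.33). Cryaa, the lens chaperone αA-crystallin, had 27.4, 23.2 and 3.66 TPM against 4.73, 3.23 and 2.96 TPM (-1.69 ± 0.52), in which R314A-CREB was as low as the S133A lines. Cryab, its partner, had 310.1, 1498 and 942 TPM against 485, 733 and 713 TPM and no common direction.

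Among transcription factors of the epithelial to mesenchymal transition, 1 of 6 was higher without overlap, against 5.61% of all genes tested, so that this is a description of 1 gene. Snai2 (chr16:14523716-14527259), which represses E-cadherin, had 17.6, 16.5 and 15.4 TPM in the intact lines and 55.6, 27.97 and 30.4 TPM in the S133A lines (1.09 ± 0.22, interval 0.52 to 1.66). The intact lines and Vector (13.6 TPM) were close together, and each S133A line was above them. Of 24 genes of mesenchyme and its matrix, 6 were higher and 1 lower in all 3 pairs, against 14.8% and 11.5% of all genes tested. Fn1, which encodes fibronectin, had 473, 72.4 and 202 TPM against 1105, 114 and 238 TPM (0.70 ± 0.22), and Thbs1, which encodes a matrix protein that activates latent TGFβ, had 728, 39.2 and 271 TPM against 1446, 574 and 385 TPM (1.78 ± 0.66). The level of Fn1 varied more between bZIP states than within pairs. Loxl3, which crosslinks collagen, had 73.8, 93.1 and 117 TPM against 131, 127 and 129.6 TPM (0.47 ± 0.18). Mmp2, a gelatinase, had 56.8, 53.2 and 64.3 TPM against 0.541, 0.961 and 60.8 TPM. It was close to absent in 2 S133A lines and close to its partner in the third, so the mean difference of -3.37 ± 1.03 describes no single pair. Itgb5, an integrin that binds vitronectin, was higher by a similar amount in each pair (0.71, 0.56 and 0.63), and so was Lama5, a laminin chain of the lens capsule (0.47, 0.47 and 0.50). Itgb8, which frees TGFβ from its latent complex, was lower in each pair (-0.06, -1.21 and -0.95).

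Further genes with the smallest unadjusted p in their lists are given by their mean difference. Higher in all 3 pairs were Akr1c13, an aldo-keto reductase (1.58 ± 0.46), Lef1, a nuclear effector of Wnt signals (0.83 ± 0.27), Hk2, a hexokinase (0.85 ± 0.29), Pfkp, a phosphofructokinase (0.55 ± 0.21), Eif4ebp1, an inhibitor of translation (0.46 ± 0.21), Igf2r, an imprinted receptor (0.47 ± 0.16), Edem1, which acts in degradation of misfolded glycoproteins (0.40 ± 0.14), and Cd74, the invariant chain (0.99 ± 0.34). Lower in all 3 pairs were Pfkl, another phosphofructokinase (-0.48 ± 0.15), G6pdx, which feeds the pentose phosphate route (-0.44 ± 0.15), Gss, glutathione synthetase (-0.58 ± 0.20), Pcna, the sliding clamp of DNA replication (-0.39 ± 0.16), Nol3, an inhibitor of apoptosis (-1.64 ± 0.60), and Ms4a4d, a membrane protein (-1.47 ± 0.68). The pairs behind some of these means were unequal, at 0.38, 0.06 and 0.95 for Eif4ebp1, 0.73, 2.89 and 1.12 for Akr1c13, 0.28, 1.55 and 0.72 for Hk2, -0.07, -2.25 and -2.60 for Nol3 and -0.30, -0.49 and -3.63 for Ms4a4d. With 1 pair left out, Ms4a4d was as small as -0.39 and Eif4ebp1 as small as 0.22. Sgce, an imprinted sarcoglycan, was at 20.97, 18.7 and 4.77 TPM against 22.4, 0 and 0 TPM, listed at 0 in both S133A lines with a mutated bZIP. The median differences of DNA replication and G2-M genes were -0.06 and -0.04.

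The TGFβ libraries of the same lines, treated with 20 ng/mL for 24 h without serum, were not used to choose the genes. Whether the control cultures lacked serum during that time is not stated, so serum may differ as well. The TGFβ libraries come from the same lines, so they repeat the measurement and not the line. Of the 12 highest genes 11 were higher in all 3 pairs there, and of the 12 lowest 10 were lower in all 3. Over all genes, 52.8% of those higher in all pairs in control libraries were so in the TGFβ libraries, and 60.4% of those lower. The exceptions were Adgra2, with pair differences of 3.47, 0.51 and -0.03, Tnfrsf10b (-4.77, -0.04 and 0.05) and Aldoc (-3.11, -0.41 and 0.32). Cox7b2 was the 1 gene that passed limma in those libraries (0.0095% of genes tested, adjusted p of 0.0394), with 3.88, 3.92 and 2.36 TPM in the intact and 61.1, 44.9 and 37.8 TPM in the S133A lines and a difference of 3.47 ± 0.19. Nlrp4e had 0.0734, 0.0387 and 0 TPM against 10.98, 10.7 and 13.5 TPM in the treated lines, and Rgs16 had 8.46, 97.7 and 73.3 TPM against 5.38, 28.98 and 32.6 TPM. Across all genes tested, the mean difference in control libraries correlated with that in TGFβ libraries at r = 0.863, and the differences within pairs at 0.894, 0.825 and 0.753. These values describe how stable each line was over 2 libraries, and they stand beside correlations near 0 between pairs.

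**Figure D5:**
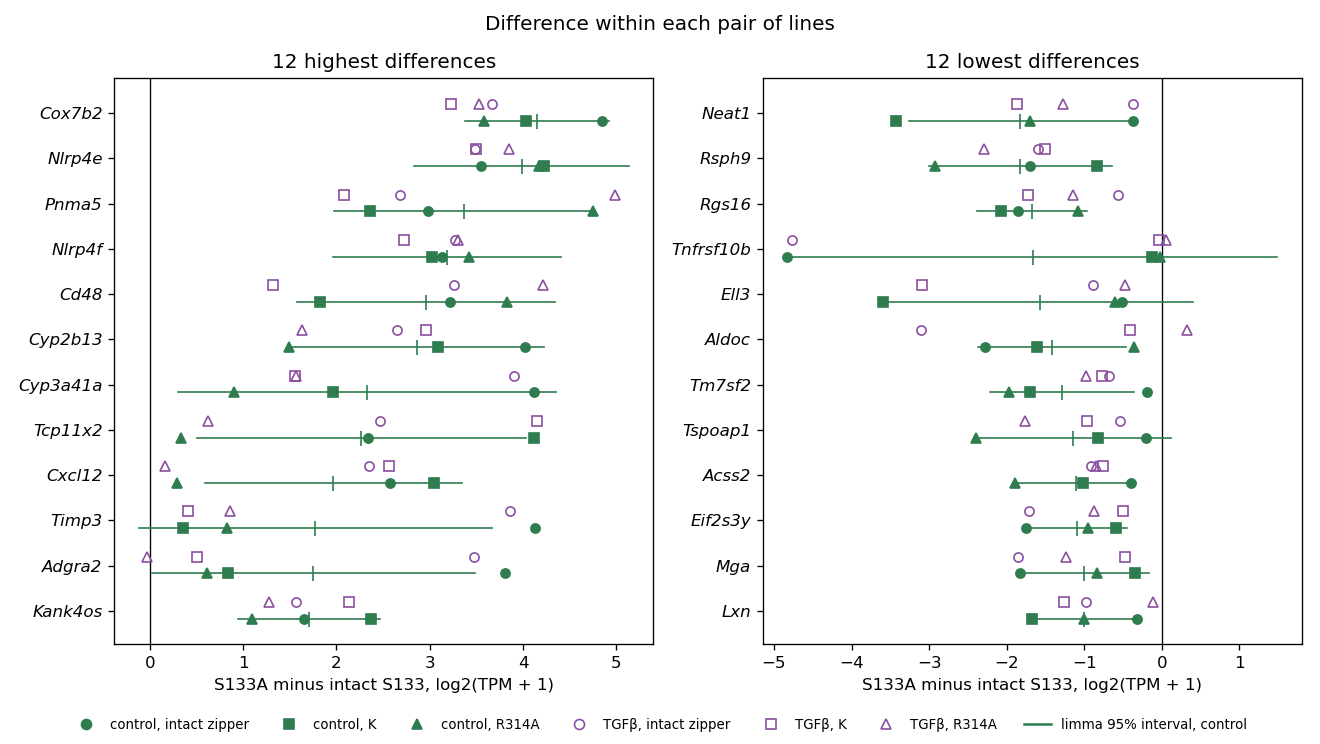
Difference in log2(TPM + 1) within each pair for the 12 highest (left) and 12 lowest (right) genes. Filled green markers are control libraries, open purple markers TGFβ libraries, the shape gives the bZIP state and the green line is the limma 95% interval in control libraries. Open and filled markers of one shape mostly lie close together, and for Timp3, Adgra2, Tnfrsf10b and Ell3 a single shape lies far from the other two.

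Few neighbouring genes had differences as large as the named ones. Within 200 kb of the 24 genes lay 135 genes that averaged 1 TPM or more (8 of them near both Neat1 and Tm7sf2). Most lay near the 12 lowest genes. Over all genes tested, 14.8% were higher and 11.5% lower in all pairs, but those genes averaged 5 TPM or more, a stricter filter. Of the 135 neighbours, 38 had the direction of the named gene in all 3 pairs. These included 10 of 24 neighbours of Tm7sf2 and 6 of 8 neighbours of Mga. A mean difference past 2-fold in that direction was found in 3, namely Xlr3a near Pnma5, Loxl2 near Tnfrsf10b and Snx15 near Tm7sf2, each owing to 1 pair. Cox7b2, Nlrp4e, Cyp2b13, Cyp3a41a and Cxcl12 had no neighbour at that level.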

How the data were processed

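RNA sequencing libraries of 7 stable αTN4-1 lines came from an mRNA kit and were read on a DNBSEQ-T7 instrument, per the labels' protocols. Per the submitters' processing notes, GRCm39, STAR 2.7.6a, StringTie 2.0.4 and edgeR were used. The authors deposited 1 gene abundance table per library with TPM, FPKM and per-base coverage, per the file headers. No read counts were used, so a count model and counting intervals cannot be given, and depth was judged from coverage per FPKM. Rows with one gene identifier were summed. The log2(TPM + 1) values of the 6 control libraries were fitted with limma 3.58.1 in R 4.3.3 (S133 state and bZIP state as terms, intensity trend, two-sided p-values adjusted by Benjamini-Hochberg over 10529 genes, threshold 0.05). The bZIP labels form the pairs. The pseudocount understates differences of low genes. The p-values set the mean difference against the disagreement among the pair differences, which limma moderates over genes. Spread between lines that follows the bZIP state is taken out by its term. Each line gave a single control culture, so spread between cultures of one line is not measured. Members, the comparison and the gene lists were chosen with earlier results of these data known, the germline, NLRP, PNMA, leukocyte, RGS, cilium, noncoding RNA and apoptosis lists in particular. Named were Creb1, Crem and Atf1 and the 12 highest and 12 lowest mean differences with one direction in all pairs and no overlap. The 4 widest ranges of pair differences were named too. List members came from the 4 of each list (fewer in short ones) whose p was smallest. For many lists fewer than these 4 are in the text, and for some lists none. Predicted genes were passed over. Others named (the rest of the 2-fold set, paralogs, markers, Srebf2, Dhcr7, neighbours) were chosen after their values were seen. The fit was tested on simulated data.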

Additional observations from a re-analysis of the deposited data

How the results depend on the processing

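Under 21 alternatives (pseudocounts, filters, scalings, FPKM, no trend, no bZIP term, each pair or library left out, means of the control and TGFβ library of each line), the number of genes called stayed at 0 except that 1 gene, Cox7b2, was called under quantile normalization (adjusted p of 0.0459) and 1, again Cox7b2, without the bZIP term (adjusted p of 0.0102). At an unadjusted p of 0.05 the alternatives gave 359 to 978 genes. The 16 genes at least 2-fold higher in all pairs became 7 with a pseudocount of 5, 39 with a filter at 1 TPM and with no filter, and 10 with a filter at 10 TPM and with FPKM. With 1 pair left out, 51 to 72 were past 2-fold in both remaining pairs, where fewer pairs had to be met. The 2 lower genes became 1 with a pseudocount of 5 and with FPKM, 5 with a filter at 1 TPM and with no filter, and 10 to 38 with 1 pair left out (38 without WT-CREB and S133A-CREB). Leaving out 1 library in the paired fit gives the difference of the other pairs. Of 81 genes whose difference the text gives, 79 kept their direction under every alternative run. Many of these genes were chosen for one direction in all pairs. For them, leaving out a pair or a library could not reverse the mean, so those runs are no check of their direction. Creb1 ranged from -0.45 to 0.11 with a pair left out and was reversed without the unmutated bZIP pair, and Crem was 0.040 in the means of both libraries. The cause was not tested. The counts of lower cholesterol genes and lower mitochondrially encoded genes stayed within 1.5 times of 14 and 10. The median of the cholesterol list ran from -0.43 to -0.27 under other settings and from -0.45 to -0.31 with a pair left out, while that of the interferon list ran from -0.71 to 0.41 with a pair left out. No paired analysis by replicate number was possible because the labels carry none, and the bZIP label served as the pair. With 1 culture per line, limma did not call a difference as large as that of Cox7b2 (4.15, adjusted p of 0.278) in the main fit. Nor did it call Nlrp4e (3.98, adjusted p of 0.694). Genes that were not called may thus still differ, by small or by large amounts.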
